A study of Mus musculus with 89 samples.

Results

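CuO NH3 is copper oxide nanomaterial whose surface was methylaminated, so that it carries positively charged -NH3 groups. The data below describe lung tissue of allergen-challenged mice that received it at its highest dose, 40 µg per mouse at each administration. The samples were chosen by their labels alone (nanomaterial CuO NH3, daily dose 40, challenge OVA), which gave 3 of the 89 samples of the series, and they were compared with the 8 samples of OVA-challenged mice that received no nanomaterial (the OVA controls). All mice were female BALB/c of 6 to 8 weeks and all, the PBS-challenged ones included, had been sensitised with ovalbumin (OVA) and the adjuvant alum. OVA or PBS, alone or with the material, was aspirated through the oropharynx on 4 consecutive days, and tissue of the left lung lobe was taken after lavage, 24 h after the last administration. The other groups used here are 7 samples of PBS-challenged mice without nanomaterial (the PBS controls), and 3 samples each of PBS-challenged mice given CuO NH3 at 40 µg, of OVA-challenged mice given CuO NH3 at 2.5 or 10 µg, and of OVA-challenged mice given 40 µg of core CuO, CuO COOH (carboxylated) or CuO PEG (coated with polyethylene glycol). The dose is given in µg in the sample descriptions and in mg in the general exposure text of the labels, and µg is used here. Each sample is a pool of 2 RNA samples, so p-values measure the spread between pools, and no value belongs to a single mouse. That spread was estimated per gene over all 89 samples after terms for dye and array or slide, not from the compared groups alone.

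In OVA-sensitised mice, inhaled OVA draws Th2 cells and eosinophils into the lung, and the cytokine IL-13 turns airway epithelial cells into mucus-secreting goblet cells. Copper oxide particles release copper ions in acid cell compartments. Cells answer excess copper and oxidative stress through the metal-responsive transcription factor MTF1, which drives the metallothioneins, through Nrf2, which drives antioxidant enzymes, and through heat shock factors, which drive chaperones.

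RNA was measured on 2-colour microarrays, with 1 sample in each dye. Between 52.1% and 61% of spots were well above background in the 3 exposed samples and between 50.4% and 68.5% in the 8 OVA controls. The median spot intensity of the exposed samples, 65 to 73, lay in the lower part of the range of the OVA controls, 66.5 to 189. Gene levels correlated at 0.993 to 0.996 between exposed samples and at 0.981 to 0.997 between OVA controls, and no sample pair held identical values. The exposed samples lay on 3 of the 6 slides, which also held 4 of the OVA controls, and no exposed sample shared an array with an OVA control, so the terms for single arrays link the groups only through other groups. The challenge was visible in the controls. Clca1, a goblet cell secreted protein, had log2 intensities of 15.10 to 17.33 in OVA controls and 6.66 to 8.88 in PBS controls, and Sftpa1, the surfactant protein A of alveolar type 2 cells and a check of the tissue, was between 15.77 and 16.19 in all 15 controls.

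Levels below are log2 intensities with the effects of dye, slide and array position removed, and 1 unit is a factor of 2. Fold changes, on the log2 scale, come from a limma fit over all 89 samples with terms for dye and for each array, so they can differ from the difference of the levels shown. A gene was called changed at a Benjamini-Hochberg adjusted p under 0.05 over all 22911 genes together with a fold change beyond 0.58 on the log2 scale (1.5 on the linear scale). RNA of whole tissue does not tell fewer cells of a type from less RNA per cell, and this holds for every cell type marker below.

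CuO NH3 at 40 µg changed 903 of 22911 genes in the allergic lung (3.94%), of which 472 rose (2.06%) and 431 fell (1.88%). Genes of neutrophils, of wound matrix and of copper and oxidative stress handling were among the rises. Genes of goblet cells, alveolar macrophages, T cells and erythrocytes were among the falls. The fold changes ran from 4.04 for Cstdc5, a stefin-type protease inhibitor of neutrophils, to -4.65 for Clca1. The 3 exposed samples lay above all 8 OVA controls in 448 of the 472 rises and below all of them in 402 of the 431 falls. Over all 22904 genes with a level in all of these samples, called or not, 22.1% lay outside the controls, 12.3% above and 9.82% below. Fold changes beyond 1 were found in 282 called genes and beyond 2 in 42. The count depended on which exposed sample was left out. It was 427 without exposed sample 1, 439 without exposed sample 2 and 1071 without exposed sample 3 (leaving out OVA control 8 gave the same values as leaving out exposed sample 3, here and below). With all samples and without a fold threshold, 4567 genes had an unadjusted limma p under 0.05.

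**Figure D1:**
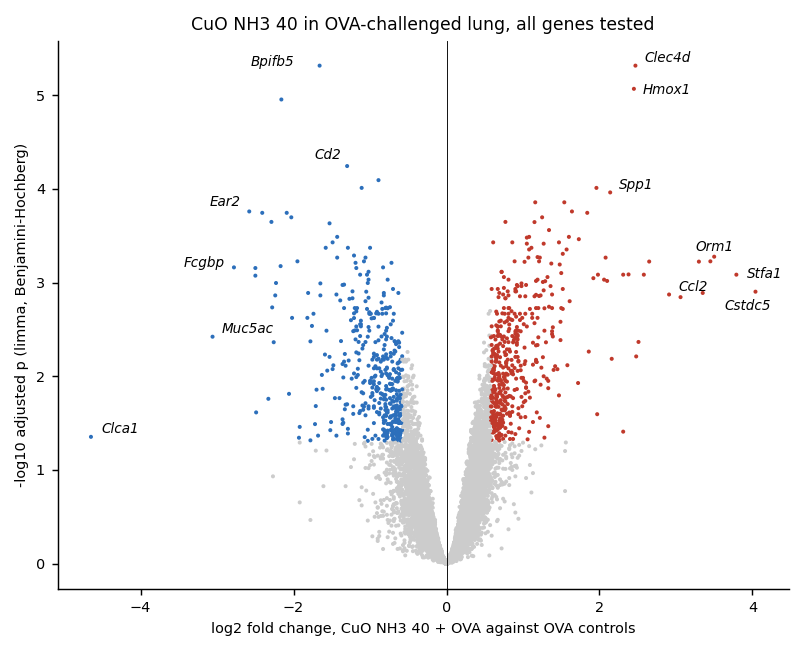
Each point is 1 of 22911 genes. The x axis gives the log2 fold change of CuO NH3 40 with OVA against OVA controls and the y axis -log10 of the limma adjusted p. Red points are the 472 genes that rose, blue points the 431 that fell, grey points were not called. Clec4d and Hmox1 lie highest on the right, and Clca1 lies farthest to the left with an adjusted p near the threshold.

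A few copper binding and oxidative stress genes rose strongly, while most members of these lists did not pass the test. Mt1 and Mt2, the metallothioneins that bind copper and zinc, and Hmox1, the haem oxygenase driven by Nrf2, rose. Of 19 genes for metallothioneins and copper handling, 2 rose and 1 fell, with a list median of 0.03. Of 26 Nrf2 antioxidant genes, 4 rose and 1 fell, with a median of 0.26. Of 17 heat shock genes, 1 rose, with a median of -0.11. The shares of called genes over the whole array were 2.06% higher and 1.88% lower. The regions before the annotated starts of Mt1, Mt2 and Hspa1a are shown because these are the genes of the copper and heat shock lists that rose. They are the 250 bases 5′ of the start from RefSeq on GRCm38.p6, 5′ to 3′ on the gene's strand: Mt1 at chr8:94178839-94179088 (plus strand), Mt2 at chr8:94172368-94172617 (plus strand) and Hspa1a at chr17:34972157-34972406 (minus strand). Capitals mark, in Mt1 and Mt2, matches on either strand to the metal response core TGCACNC or TGCGCNC and, in Hspa1a, a match to the heat shock core GAANNTTC.
Mt1: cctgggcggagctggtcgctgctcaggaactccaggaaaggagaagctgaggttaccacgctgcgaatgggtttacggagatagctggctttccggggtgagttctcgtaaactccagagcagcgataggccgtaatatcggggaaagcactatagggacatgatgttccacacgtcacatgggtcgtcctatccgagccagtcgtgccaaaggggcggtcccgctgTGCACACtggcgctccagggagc
Mt2: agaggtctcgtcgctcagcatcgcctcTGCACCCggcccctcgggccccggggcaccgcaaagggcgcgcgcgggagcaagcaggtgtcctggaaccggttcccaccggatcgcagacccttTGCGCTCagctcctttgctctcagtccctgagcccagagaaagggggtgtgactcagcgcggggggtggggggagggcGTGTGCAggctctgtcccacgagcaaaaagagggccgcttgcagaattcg
Hspa1a: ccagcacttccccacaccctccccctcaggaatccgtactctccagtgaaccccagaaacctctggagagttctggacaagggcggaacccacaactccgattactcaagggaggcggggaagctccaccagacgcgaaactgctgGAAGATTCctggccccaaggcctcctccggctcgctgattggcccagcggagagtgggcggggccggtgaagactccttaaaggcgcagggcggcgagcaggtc
Within these 250 bases Mt1 held 1 match, Mt2 held 3 and Hspa1a held 1. Bases past the annotated start or further upstream were not searched, so these counts do not rank the whole promoters. The metal response core was found in 21.3% of 27025 promoters of this length and in 8 of the 16 promoters of the copper list that could be matched, most of which belong to genes that were not called. The heat shock core was found in 6.78% of all promoters and in 5 of 13 of the heat shock list. These are matches of letters, not binding sites.

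Mt2 measured 13.99, 14.54 and 14.52 in the exposed samples against 12.14 to 13.23 in OVA controls (median 12.78), a rise of 1.73 ± 0.25 (SE, n = 3 against 8, adjusted p = 0.000344). Mt1 measured 11.41, 11.69 and 11.86 against 10.00 to 10.69 (median 10.41), a rise of 1.08 ± 0.15 (adjusted p = 0.000325). In both genes the groups did not overlap, and Mt1 and Mt2 stayed called under all alternatives tried. Sod3, the extracellular superoxide dismutase, was the member that fell. It measured 13.56, 13.42 and 13.11 against 13.85 to 14.12, a change of -0.73 ± 0.20 (adjusted p = 0.0325). That call was lost without any one of the exposed samples and without control 8. The copper transporters and chaperones of the list, Atp7a, Atp7b, Slc31a1, Slc31a2, Atox1, Ccs and Cox17, named here after their values were seen, had fold changes between -0.16 and 0.03.

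Hmox1 was at 12.95, 13.22 and 12.95 in the exposed samples and at 10.33 to 11.31 in OVA controls (median 11.08), a rise of 2.45 ± 0.25 (adjusted p = 8.54e-06). The gap between the lowest exposed sample and the highest control was wider than the whole range of either group. Fth1, the iron-storing ferritin heavy chain, rose by 1.27 ± 0.19 (adjusted p = 0.000384), from 15.90 to 16.34 in controls to 17.00, 17.06 and 17.17, but by only 0.19, below the threshold, when arrays were normalised by loess. Akr1b8, an aldo-keto reductase, rose by 1.21 ± 0.19 (adjusted p = 0.000593). Gstm1, a glutathione transferase, fell to 11.74, 11.74 and 11.38 from 12.11 to 13.08, a change of -1.04 ± 0.19 (adjusted p = 0.00191). Hspa1a, an inducible HSP70 chaperone, was the gene of the heat shock list that rose, with levels of 12.44, 13.27 and 13.93 against 10.01 to 11.75 and a rise of 2.31 ± 0.66 (adjusted p = 0.039). Hspa1a lay above all controls in every exposed sample, but its call was lost in 10 of the 22 alternatives, among them leaving out any one exposed sample. Its near-identical neighbour Hspa1b had a fold change of 0.72 ± 0.79 (adjusted p = 0.688), and whether the probes tell these copies apart was not tested.

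Goblet cell transcripts that mark the allergic airway were far lower after CuO NH3 at 40 µg. Of 12 goblet cell genes 8 fell and none rose, and 10 of the 12 had all 3 exposed samples below all 8 OVA controls, against 9.82% of all genes. The list median was -1.85. The mean level of the list was 9.21 to 9.53 in the exposed samples, 10.98 to 11.70 in OVA controls and 7.53 to 8.26 in PBS controls, so the exposed samples lay between both control groups. The number called depended on single samples, being 3 without exposed sample 1, 4 without exposed sample 2, 3 without exposed sample 3, control 5 or control 8, 4 without control 7 and 5 without control 2 or 3. The median of the list stayed between -2.18 and -1.43 in all 22 alternatives.

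Muc5ac, the mucin of goblet cells, was at 7.66, 7.66 and 8.12 in the exposed samples and at 10.43 to 11.45 in OVA controls (median 10.99), a fall of 3.06 ± 0.61 (adjusted p = 0.00378). Fcgbp, an IgG Fc-binding protein of mucus, was at 8.00, 7.99 and 8.24 against 10.45 to 11.49 (median 10.99), and fell by 2.78 ± 0.44 (adjusted p = 0.000688). Both stayed called under all alternatives. Clca1, a secreted regulator of mucus processing, was at 11.28, 11.73 and 11.46 against 15.10 to 17.33 (median 16.52), and fell by 4.65 ± 1.37, the largest fall of the array (adjusted p = 0.0443). Tff2, a trefoil factor of mucus, was at 8.51, 9.05 and 9.36 against 10.71 to 11.74, a fall of 2.49 ± 0.65 (adjusted p = 0.0243). Muc5b, the mucin that lines airways also without allergy, was at 11.11, 11.54 and 11.93 against 12.57 to 13.34, a fall of 1.78 ± 0.53 (adjusted p = 0.0483). For these 3 genes the exposed samples lay below every control, but their adjusted p was near the threshold. Leaving out any one exposed sample, control 5 or control 8 took the call from Clca1, Tff2 and Muc5b, with adjusted p up to 0.294.

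IL-13 response genes moved in both directions. Of 13 genes 3 fell, Clca1, Fcgbp and Chil4, and 2 rose, Retnlb and Areg, with a median of -0.43. Areg, the growth factor amphiregulin, rose by 1.33 and is named after its value was seen. Chil4, a chitinase-like protein of airway epithelium, was at 10.13, 10.00 and 9.65 against 12.16 to 13.52 (median 12.76) and fell by 2.50 ± 0.41 (adjusted p = 0.000843). Retnlb, a resistin-like secreted protein, was at 11.33, 11.66 and 11.56 against 8.30 to 9.66 (median 9.06) and rose by 2.38 ± 0.38 (adjusted p = 0.000818). Chil4 and Retnlb thus lay on opposite sides of the controls with no overlap, and both stayed called throughout. The number of called IL-13 genes fell to 3 without exposed sample 1 or 3 or control 8.

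Cytokines that drive the allergic response did not pass the test. Of 15 Th2 cytokine and chemokine genes 1 fell, Gata3, the transcription factor of Th2 cells and innate lymphoid cells, and the median was -0.16. Gata3 was at 10.13, 9.97 and 9.43 against 10.52 to 10.80, a change of -0.78 ± 0.19 (adjusted p = 0.0136), and lost its call without exposed sample 2 or 3 or control 8. Ccl11, eotaxin 1, had a fold change of -0.09 ± 0.27 (adjusted p = 0.905). Its value was not stable, running from -2.18 to 0.32 over 22 alternatives, and it was called, as a fall, with array as a random block (-1.16) and with the replicate block (-2.18). Ccl24, eotaxin 2, had a fold change of 0.59 ± 0.44 (adjusted p = 0.503). Il4 had -0.19 ± 0.33 (adjusted p = 0.819) and Il33, the epithelial alarmin, -0.17 ± 0.22 (adjusted p = 0.744). Il13 was not well above background in any exposed sample or OVA control and Il5 in 0 of 3 exposed samples and 4 of 8 controls, so the arrays give no fold change of these cytokines. Eosinophil genes did not move as a list. Of 10 measured 2 fell, with a median of -0.14, and these were Ear10 and Rnase2a, ribonucleases that macrophages also express. Ear10 was at 11.78, 11.20 and 10.86 against 12.91 to 13.66, a fall of 2.03 ± 0.27 (adjusted p = 0.000201). Rnase2a fell by 1.82 ± 0.34 (adjusted p = 0.00238). The eosinophil granule genes Epx and Prg2, named after their values were seen, had fold changes of 0.82 and 0.54 and were not called.

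Alveolar macrophage markers were lower. Of 15 genes 12 fell and none rose, with a median of -1.14, and the mean level of the list was 9.73 to 10.34 in exposed samples against 11.16 to 11.38 in OVA controls. The count was 8 without exposed sample 1 and 7 without exposed sample 2, exposed sample 3 or control 8. Ear2, a ribonuclease of resident macrophages, was at 12.52, 11.59 and 11.14 against 13.88 to 14.48 (median 14.34) and fell by 2.58 ± 0.34 (adjusted p = 0.000174). Ear1, its close relative, fell by 2.29 ± 0.31 (adjusted p = 0.000225), and probes for this ribonuclease family may share targets, which was not tested. Cidec, a lipid droplet protein, was at 7.92, 7.58 and 7.54 against 9.27 to 10.45 and fell by 2.24 ± 0.39 (adjusted p = 0.00137). Marco, a scavenger receptor for particles, was at 6.82, 7.06 and 5.86 against 8.24 to 9.68 (median 8.79) and fell by 2.33 ± 0.58 (adjusted p = 0.0174), a call that was lost without any one exposed sample or control 8. Chia1, the acidic chitinase of macrophages and epithelium, was at 12.75, 11.61 and 11.25 against 13.46 to 14.78 and fell by 2.41 ± 0.32 (adjusted p = 0.00018). Exposed sample 1 lay nearest to the controls in Ear2, Ear1 and Chia1, yet still below all 8.

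Lymphocyte transcripts were lower. Of 22 T cell genes 13 fell and none rose, with a median of -0.78. In 19 of the 22 all exposed samples lay below all controls, against 9.82% of all genes. The mean level of the T cell list was 7.80 to 8.11 in the exposed samples, 8.65 to 8.95 in OVA controls and 8.08 to 8.52 in PBS controls. The count of T cell genes called was 1 without exposed sample 1 and 5 without exposed sample 3, control 5 or control 8, while the median stayed between -0.94 and -0.58. Cd2, an adhesion receptor of T and NK cells, was at 10.04, 9.82 and 9.67 against 11.32 to 11.62 (median 11.51) and fell by 1.3 ± 0.15 (adjusted p = 5.7e-05). Cd3d, a chain of the T cell receptor complex, fell by 1.18 ± 0.25 (adjusted p = 0.00556), Icos, a costimulator, by 1.28 ± 0.28 (adjusted p = 0.00679) and Cd6 by 1.1 ± 0.28 (adjusted p = 0.0205). Without exposed sample 1 the calls of Cd3d, Icos and Cd6 were lost, and that of Cd2 was kept. Of 7 NK cell genes 3 fell, with a median of -0.91, and in all 7 the exposed samples lay below all controls. Gzma, the granzyme A of NK and cytotoxic T cells, was at 10.27, 10.39 and 10.28 against 12.23 to 12.93 (median 12.58) and fell by 1.95 ± 0.30 (adjusted p = 0.000593). Prf1, perforin, fell by 1.08 ± 0.17 (adjusted p = 0.000593) and Ncr1, an NK cell receptor, by 0.91 ± 0.20 (adjusted p = 0.00823), and the NK count was 2 without exposed sample 1 and 5 without control 2. Jchain, which joins secreted IgA and IgM, was the member of 12 B and plasma cell genes that fell, by 1.32 ± 0.34 (adjusted p = 0.0201), a call lost without any one of the exposed samples, control 5 or control 8. The median of that list was -0.35, and in 9 of the 12 all exposed samples lay below all controls. Its mean level was 7.81 to 8.07 in exposed samples against 8.45 to 8.89 in OVA controls. With slide in place of array terms 6 of its genes were called.

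Of 9 dendritic cell genes 4 fell, with a median of -0.62. Cd207, the lectin langerin, was at 6.15, 6.47 and 6.16 against 7.12 to 7.59 and fell by 1.17 ± 0.21 (adjusted p = 0.00187). Itgae, the CD103 integrin, fell by 0.95 ± 0.18 (adjusted p = 0.00238), Clec9a, a receptor of cross-presenting dendritic cells, by 0.91 ± 0.17 (adjusted p = 0.00205) and Cd209a by 0.71 ± 0.16 (adjusted p = 0.0106). The first 3 of these genes stayed called under all alternatives. Of 10 mast cell and basophil genes 2 fell, the mast cell proteases Cma1, by 1.16 ± 0.26 (adjusted p = 0.00831), and Mcpt4, by 1.13 ± 0.30 (adjusted p = 0.0235), and neither was called without exposed sample 1, nor Mcpt4 without exposed sample 2 or control 5.

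Haemoglobin and haem synthesis transcripts of red cells were lower. Of 6 erythrocyte genes measured 4 fell, with a median of -1.70. Hbb-bt, a beta globin, was at 13.37, 13.73 and 13.12 against 15.66 to 16.52 (median 15.96) and fell by 2.50 ± 0.40 (adjusted p = 0.000699). Alas2, the erythroid enzyme of haem synthesis, was at 8.79, 9.20 and 8.83 against 10.65 to 11.49 and fell by 2.23 ± 0.37 (adjusted p = 0.00101). Hba-a1, an alpha globin, fell by 1.78 ± 0.36 (adjusted p = 0.00424), and Slc4a1, the anion exchanger of the red cell membrane, was not well above background in any exposed sample and was at least 2.21-fold lower (adjusted p = 0.0136), a bound that sets the mean of the controls against the lowest signal above background on the exposed arrays. Without exposed sample 1 the called erythrocyte genes were 2.

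Markers of the lung's own epithelium and vessels were lower in part. Of 10 club cell genes 4 fell (median -1.08), of 14 endothelial genes 7 fell (median -0.63), of 13 alveolar type 2 genes 3 fell (median -0.19), of 11 ciliated cell genes 2 fell (median -0.47) and of 8 alveolar type 1 genes 1 fell (median -0.36). None of these lists held a rise. The counts rested on few samples. Without exposed samples 1, 2 and 3 in turn, they were 2, 0 and 2 for club cells, 0, 1 and 3 for endothelium, 3, 1 and 3 for type 2 cells and 0, 1 and 1 for ciliated cells. Leaving out control 5 or 6 also took the endothelial count to 4 or 3, and leaving out control 8 took the club cell count to 2, the endothelial count to 3 and the ciliated count to 1. Cyp2f2, a cytochrome P450 of club cells, was at 13.93, 14.17 and 13.60 against 14.53 to 16.22 and fell by 1.49 ± 0.33 (adjusted p = 0.00838). Ramp2, a receptor partner of endothelium, fell by 0.88 ± 0.20 (adjusted p = 0.00822), and Tppp3 of ciliated cells by 1.15 ± 0.23 (adjusted p = 0.0043). Sftpa1, the surfactant protein A of type 2 cells, was at 15.37, 15.35 and 15.13 against 15.91 to 16.19 (median 16.08), a fall of 0.89 ± 0.18 (adjusted p = 0.00413) in one of the brightest transcripts of the array, and it stayed called in all alternatives. The other surfactant protein genes of the list, named after their values were seen, were not called. Sftpc had a fold change of 0.15, Sftpd of 0.46 and the 2 probes of Sftpb of -0.28 and -0.26.

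**Figure D2:**
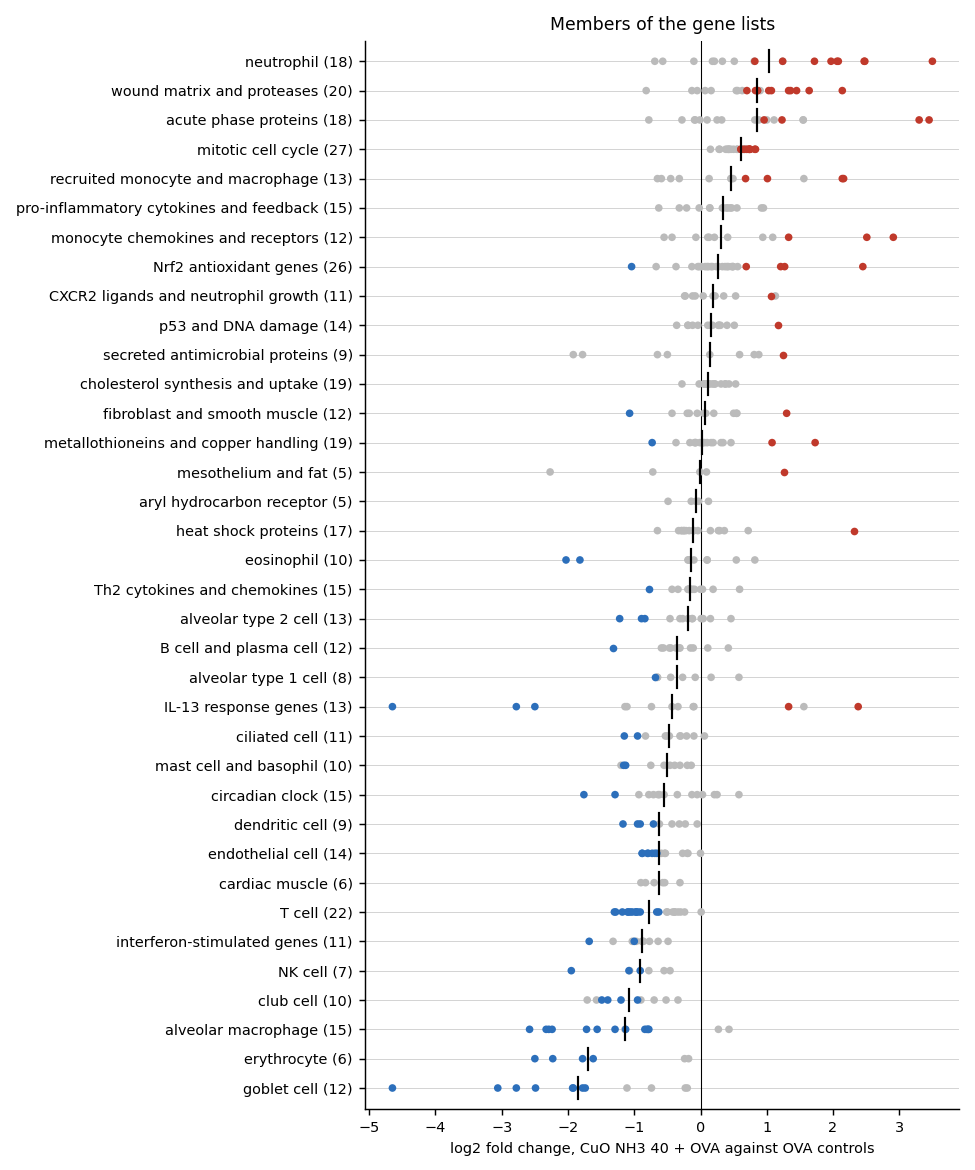
Each row is a gene list, with the number of measured members in brackets, and each point a member's log2 fold change in CuO NH3 40 with OVA against OVA controls. Red and blue points rose or fell, grey points were not called, and the black bar is the list median, which runs from 1.03 for neutrophil genes to -1.85 for goblet cell genes.

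Neutrophil genes rose. Of 18 measured 9 rose and none fell, with a median of 1.03, and the mean level of the list was 9.78 to 10.44 in exposed samples against 8.92 to 9.24 in OVA controls and 8.86 to 9.07 in PBS controls. The count was 4 without exposed sample 2, in which S100a8 and the stefins below were highest, and 9 and 10 without exposed samples 1 and 3. Clec4d, a C-type lectin of neutrophils and monocytes, was at 10.99, 11.47 and 11.50 against 8.64 to 9.10 (median 8.82) and rose by 2.47 ± 0.24 (adjusted p = 4.83e-06). S100a8, a subunit of calprotectin, was at 13.66, 14.76 and 14.33 against 11.70 to 12.49 (median 12.13) and rose by 2.48 ± 0.53 (adjusted p = 0.00614), or by 1.54 (adjusted p = 0.164) without exposed sample 2. Mmp8, the neutrophil collagenase, rose by 2.08 ± 0.32 (adjusted p = 0.000541). In 11 of the 18 genes all exposed samples lay above all OVA controls and in 1 below, against 12.3% and 9.82% of all genes. Fpr1 (-0.69), Csf3r (-0.57) and Retnlg (-0.10) of the list, named after their values were seen, were not called. The largest rises of the array were in stefins, protease inhibitors that neutrophils carry. Cstdc5 was at 10.26, 11.85 and 10.56 against 6.73 to 7.73 (rise 4.04 ± 0.69, adjusted p = 0.00125). Stfa1 was at 9.69, 10.90 and 10.07 against 6.19 to 6.89 (rise 3.79 ± 0.62, adjusted p = 0.000823). Stfa2l1, Stfa2 and Cstdc4 rose by 3.5, 3.35 and 3.06. These genes lie in a family of near-identical copies, so their probes may read one another's transcripts, which was not tested.

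Acute phase and secreted defence proteins rose in part. Of 18 acute phase genes 4 rose and none fell (median 0.85). Orm1, an orosomucoid, was at 9.61, 11.76 and 11.20 against 6.94 to 7.52 (median 7.12) and rose by 3.45 ± 0.54 (adjusted p = 0.000593), and its close copy Orm2 rose by 3.30 ± 0.51 (adjusted p = 0.000597). Hp, haptoglobin, rose by 0.96 ± 0.18 (adjusted p = 0.00251), but by 0.30 (adjusted p = 0.449) with loess. Saa3, a serum amyloid A made in the lung, was at 14.17, 17.20 and 16.34 against 13.38 to 14.92 and did not pass the test (1.55 ± 0.65, adjusted p = 0.168), with exposed sample 1 inside the range of the controls. The number of acute phase genes called was 7 without exposed sample 1 or control 1 and 11 with slide in place of array terms. Dmbt1, a scavenger protein secreted by epithelium, was at 8.24, 8.62 and 9.11 against 5.59 to 6.33 and rose by 2.65 ± 0.41 (adjusted p = 0.000596). Asprv1, a retroviral-like protease, rose by 2.58 ± 0.42 (adjusted p = 0.000823).

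Monocyte chemoattractants rose while most inflammatory cytokines did not pass. Of 12 monocyte chemokine and receptor genes 3 rose (median 0.31), Ccl2, Ccl7 and Ccl3. Ccl2, the main ligand of the receptor CCR2, was at 13.38, 15.19 and 14.27 against 10.84 to 12.70 (median 11.47) and rose by 2.91 ± 0.51 (adjusted p = 0.00134). Ccl7 was at 11.49, 13.56 and 12.65 against 9.27 to 11.42 (median 10.32) and rose by 2.51 ± 0.51 (adjusted p = 0.0043). In both, exposed sample 2 was the highest, and without it neither Ccl2 (2.05, adjusted p = 0.0507) nor Ccl7 (1.55, adjusted p = 0.133) nor Ccl3 was called. Of 11 genes for CXCR2 ligands and neutrophil growth 1 rose, the platelet chemokine Ppbp (1.06 ± 0.32, adjusted p = 0.0471), and its call was lost in 10 of the 22 alternatives. Cxcl1 was at 9.61, 11.26 and 10.34 against 8.66 to 10.15 (1.13 ± 0.41, adjusted p = 0.108) and Cxcl5 at 9.26, 10.41 and 9.78 against 7.79 to 10.67 (0.19 ± 0.52, adjusted p = 0.89). None of 15 pro-inflammatory cytokine genes was called. Il6 (0.95 ± 0.29, adjusted p = 0.054) and Tnf (0.55 ± 0.27, adjusted p = 0.267) missed the threshold. The count was not stable, at 4 with slide terms and up to 6 over the alternatives, and Il6 was called in 9 and Tnf in 4 of 22. Of 13 genes of recruited monocytes and macrophages 4 rose and none fell (median 0.46), among them Gpnmb, a glycoprotein of lipid-laden macrophages (2.16 ± 0.46, adjusted p = 0.00651), Spp1 and the endotoxin receptor Cd14 (1.01 ± 0.23, adjusted p = 0.0112). Without exposed sample 1 or 2 the count was 2. In 5 of the 13 all exposed samples lay above all OVA controls and in 1 below, against 12.3% and 9.82% of all genes. C1qa (-0.65), C1qb (-0.59), C1qc (-0.45) and Ly6c2 (-0.32) of the list, named after their values were seen, were not called.

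Wound matrix and protease genes rose together. Of 20 genes 11 rose and none fell, with a median of 0.85, and between 8 and 9 were called without any one exposed sample. Spp1, osteopontin, a secreted matrix protein of macrophages, was at 15.58, 14.99 and 15.08 against 12.38 to 13.85 (median 13.20) and rose by 2.14 ± 0.27 (adjusted p = 0.000109). Tnc, tenascin C, a matrix protein of healing tissue, was at 8.74, 8.71 and 8.98 against 6.63 to 7.24 (median 6.99) and rose by 1.64 ± 0.21 (adjusted p = 0.000174). Thbs1, thrombospondin 1, was at 11.05, 10.69 and 11.24 against 9.43 to 10.08 and rose by 1.36 ± 0.23 (adjusted p = 0.00109). Spp1, Tnc and Thbs1 stayed called throughout. Mmp9, a gelatinase, rose by 1.45 ± 0.32 (adjusted p = 0.0084) but was not called without exposed sample 2. Col1a1, a chain of type I collagen, is not in this list. It rose by 1.3 ± 0.26 (adjusted p = 0.00434) but was not called without exposed sample 1. Of the 12 fibroblast and smooth muscle genes that include Col1a1, 1 rose and 1 fell, Inmt (-1.07), with a median of 0.07. The collagen genes Col1a2 (0.55) and Col3a1 (0.50), named after their values were seen, were not called.

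Mitotic genes were somewhat higher. Of 27 genes 10 rose and none fell, with a median of 0.61, and in 24 the exposed samples lay above all controls, against 12.3% of all genes. Cdk1, the kinase that starts mitosis, was at 9.03, 9.03 and 9.40 against 7.97 to 8.51 and rose by 0.83 ± 0.22 (adjusted p = 0.0255). Bub1, a spindle checkpoint kinase, rose by 0.82 ± 0.20 (adjusted p = 0.0162), Ccnb1, cyclin B1, by 0.75 ± 0.20 (adjusted p = 0.0223) and Tpx2, a spindle factor, by 0.74 ± 0.18 (adjusted p = 0.0166). Rises of this size were close to the fold threshold, and the count was 2 without exposed sample 1, 1 without exposed sample 2, 6 without control 6 and 3 against the 4 controls of the same slides, and 18 with slide in place of array terms, with the median between 0.55 and 0.73 in all alternatives. Gdf15, a stress-induced cytokine and p53 target, rose by 1.17 ± 0.20 (adjusted p = 0.00135), the called member of 14 p53 and DNA damage genes. None of 19 cholesterol synthesis genes was called.

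The same dose was also given to PBS-challenged mice, and the difference between its effect in OVA- and PBS-challenged mice was tested directly. That difference was called in 363 genes (1.58%), 317 with a lower value in OVA-challenged mice (1.38%) and 46 with a higher one (0.201%). In PBS-challenged mice CuO NH3 at 40 µg changed 3034 genes against PBS controls (13.2%), of which 1675 rose (7.31%) and 1359 fell (5.93%). The OVA controls were themselves changed from PBS controls in 1197 genes (5.22%), of which 856 were higher (3.74%) and 341 lower (1.49%). These comparisons share control samples, and their values are given side by side. Without CuO NH3 40 PBS sample 1 or PBS control 5 the difference was called in 147 genes, and without exposed sample 1 in 202.

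The mitotic genes showed the difference most widely. In 25 of 27 the effect was smaller in OVA-challenged mice, with a median difference of -1.76, and between 22 and 26 genes were called in each of the alternatives. All 27 rose in PBS-challenged mice (median 2.40) and 26 rose with OVA alone (median 1.54). Tpx2 was at 9.12, 9.21 and 9.42 in OVA-challenged and at 9.05, 9.28 and 9.08 in PBS-challenged mice given the material, against medians of 8.43 in OVA controls and 6.57 in PBS controls, and its difference was -1.86 (adjusted p = 5.98e-05). Cdk1 behaved alike, at 9.02, 9.40 and 9.18 in PBS-challenged exposed mice, with a difference of -1.58 (adjusted p = 0.0025). The exposed samples of both challenges thus reached similar levels of Tpx2 and Cdk1 from different controls.

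Genes of recruited monocytes showed the difference in 7 of 13 (median -1.69) and monocyte chemokines in 5 of 12 (median -1.40), or in 2 without exposed sample 1 or 3, CuO NH3 40 PBS sample 1 or PBS control 5. Spp1 was at 14.90, 14.79 and 14.56 in PBS-challenged exposed mice against 10.07 to 11.22 in PBS controls, a rise of 4.43 there and of 2.14 with OVA, and the difference was -2.29 (adjusted p = 0.000402). Mt2 was at 14.28, 14.19 and 14.33 in PBS-challenged exposed mice against 10.93 to 11.83 in PBS controls, a rise of 3.21 there and of 1.73 with OVA (difference -1.47, adjusted p = 0.0142). Mt1 gave a difference of -0.97 (adjusted p = 0.00829). Without exposed sample 3 or OVA control 8 the difference was called in no metallothionein or copper gene. For Hmox1 the rises were 2.62 with PBS and 2.45 with OVA and the difference was -0.17 (adjusted p = 0.893).

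Goblet cell genes had another pattern as a list, though not in every member. Of 12 genes 10 rose with OVA alone (median 2.43), while in PBS-challenged mice 2 rose with the material (median 0.04). Fcgbp was at 7.59, 7.61 and 7.51 in PBS-challenged exposed mice and at 6.90 to 8.03 in PBS controls, a fold change of -0.05 there, and the difference between challenges was -2.72 (adjusted p = 0.00964). Chil4 is in the IL-13 list but not in the goblet list. It was at 7.30, 7.37 and 7.34 in PBS-challenged exposed mice and at 7.08 to 7.78 in PBS controls, with a difference of -2.59 (adjusted p = 0.00791). For Muc5ac the difference was -2.95 (adjusted p = 0.0604) and for Clca1 -3.68 (adjusted p = 0.391). In PBS controls Muc5ac was at 6.34 to 7.41 and Clca1 at 6.66 to 8.88. The difference was called in 3 of 12 goblet genes, and in 1 without exposed sample 1, CuO NH3 40 PBS sample 1 or PBS control 5. Slc26a4, 1 of the 3, had -0.74 with OVA and a difference of -3.62, so unlike Fcgbp its fold change with PBS was above 0. Retnlb is not in the goblet list either. It reached 11.15, 11.15 and 10.99 in PBS-challenged exposed mice, close to the 11.33 to 11.66 with OVA, from 5.57 to 6.54 in PBS controls (difference -2.36, adjusted p = 0.0107).

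The difference between challenges was called in 0 of 18 neutrophil and 0 of 22 T cell genes. It was called in 1 of 15 alveolar macrophage and 0 of 6 erythrocyte genes. Over all genes the share was 1.58%, so counts this small do not set these lists apart. Median differences of the 4 lists, in this order, were 0.09, 0.05, -0.01 and 0.11. In PBS-challenged mice 10 neutrophil genes rose and 2 fell, and 9 alveolar macrophage genes fell and 1 rose. There 14 T cell and 4 erythrocyte genes fell and none rose. The shares over all genes in PBS-challenged mice were 7.31% higher and 5.93% lower. Gzma fell by 2.58 with PBS and by 1.95 with OVA (difference 0.63, adjusted p = 0.543), and Ear2 fell by 2.95 and 2.58 (difference 0.37, adjusted p = 0.803). Among the genes with the largest differences, the lymphoid chemokine Cxcl13 rose by 3.04 with PBS and had a fold change of -1.05 with OVA (difference -4.08, adjusted p = 0.000136). It was at 9.56, 10.80 and 11.06 in OVA-challenged and at 10.35, 10.24 and 11.21 in PBS-challenged exposed mice, against medians of 10.86 in OVA controls and 7.41 in PBS controls. Slc26a4, the anion transporter pendrin of airway epithelium, gave -3.62 (adjusted p = 0.000387). In the other direction, Cyp2a5, a cytochrome P450 of airway epithelium, fell by 4.10 with PBS and had a fold change of -1.57 with OVA (difference 2.53, adjusted p = 0.0452). This call was lost in 15 of 29 alternatives (adjusted p up to 0.34), including those without any 1 of the exposed samples of either challenge.

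**Figure D3:**
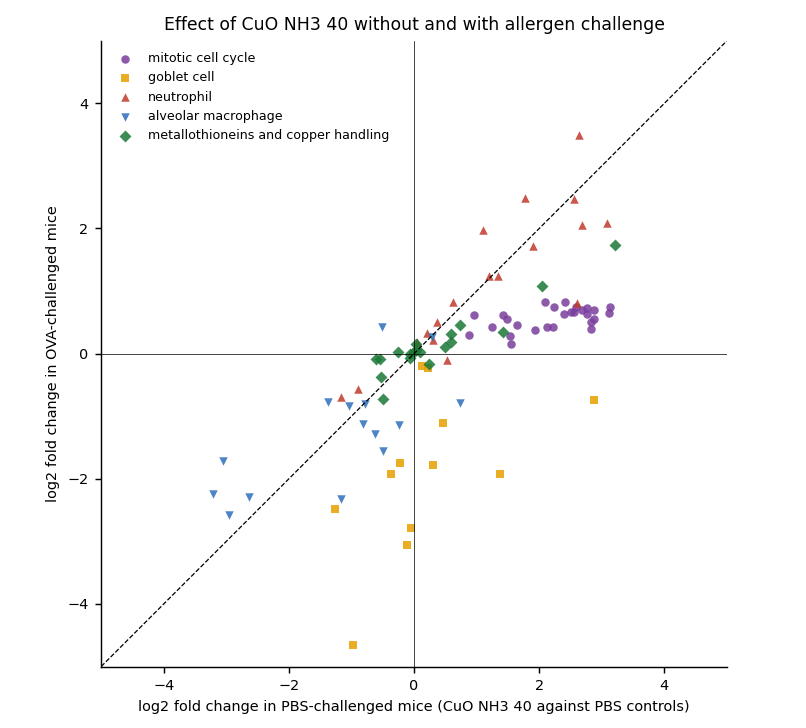
Each point is a gene of 5 lists. The x axis gives its log2 fold change by CuO NH3 40 in PBS-challenged mice against PBS controls, the y axis the change in OVA-challenged mice against OVA controls, and the dashed line marks equal change. Mitotic genes lie far to the right and just above 0 (medians 2.40 and 0.61). Goblet cell genes lie low near the vertical line by their medians (0.04 and -1.85), although 2 of 12 rose in PBS-challenged mice.

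Lower doses of CuO NH3 in OVA-challenged mice changed 210 genes at 2.5 µg (0.917%) and 575 at 10 µg (2.51%, 1.45% higher and 1.06% lower) against the same OVA controls. Tested against 10 µg directly, 40 µg differed in 4 genes (0.0175%), being higher in 1 (0.00436%) and lower in 3 (0.0131%), and 2109 genes had an unadjusted p under 0.05. The count of 4 is not stable, being 29 without exposed sample 3, 33 without exposed sample 2, 11 and 27 without 10 µg samples 2 and 3, and 405 with slide in place of array terms. Without exposed sample 1 the count was 3, and neither these 3 nor the 27 without 10 µg sample 3 held any of the 4 genes. Chil4 was lower at 40 µg by 3.11 (95% interval -4.20 to -2.02, adjusted p = 0.0402), with levels of 12.25, 12.36 and 12.97 at 10 µg and 12.91, 13.62 and 13.19 at 2.5 µg, inside or near the range of the OVA controls. Adra2a, an adrenergic receptor, was lower by 2.34 and Bpifb5, a secreted lipid-binding family protein, by 1.22 (both adjusted p = 0.0402). Chil4, Adra2a and Bpifb5 each lost the call without exposed sample 1, exposed sample 3 or 10 µg sample 3. Ptprn, a secretory granule protein, was at least 1.2-fold higher at 40 µg, being not well above background in any 10 µg sample, and lost its call in 7 of 14 alternatives (adjusted p up to 0.668).

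Goblet cell genes at 10 µg were not called against OVA controls (0 of 12, median 0.25). At 40 µg the count was 8 of 12, or 3 without exposed sample 1 or 3, and the difference between the 2 counts was not tested. Muc5ac was at 10.66, 11.82 and 11.60 at 2.5 µg, at 9.49, 10.33 and 10.70 at 10 µg and at 7.66 to 8.12 at 40 µg. Its difference between 40 and 10 µg was -3.42 (95% interval -5.06 to -1.78) and did not pass the correction over all genes (adjusted p = 0.117). Clca1 was at 13.76, 17.23 and 16.02 at 2.5 µg and at 14.28, 14.77 and 15.73 at 10 µg (40 against 10 µg, -4.50, adjusted p = 0.419). For both genes the 40 µg samples lay below every sample of the lower doses. At 10 µg 2 of 3 samples of each lay below the OVA controls, on levels without array terms, whereas the median of 0.25 over the list is from the fit with them. Cd2 had a fold change of -0.28 at 10 µg against OVA controls and was lower at 40 than at 10 µg by 1.03 (95% interval -1.43 to -0.62, adjusted p = 0.0612). T cell genes at 10 µg had a median of -0.10, with 1 of 22 called, a rise.

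Other genes were already changed at 10 µg. Hmox1 was at 12.05, 12.25 and 11.45 at 2.5 µg and at 12.29, 12.62 and 12.38 at 10 µg, where it rose by 2.12 against OVA controls, and 40 µg differed from 10 µg by 0.33 (adjusted p = 0.84). Mt2 was at 12.98, 13.49 and 13.01 at 2.5 µg and at 13.53, 13.99 and 13.78 at 10 µg (rise 1.72, 40 against 10 µg 0.02, adjusted p = 0.994). Ccl2 was at 12.92, 13.82 and 13.36 and then at 13.80, 14.07 and 14.10 (rise at 10 µg 3.10, 40 against 10 µg -0.18, adjusted p = 0.968). Neutrophil genes had a median of 1.09 at 10 µg with 5 of 18 called, and mitotic genes 0.58 with 10 of 27. Marco fell by 3.08 at 10 µg, with levels of 7.39, 5.78 and 6.16, and the difference of 40 from 10 µg was not called (0.76, adjusted p = 0.84).

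**Figure D4:**
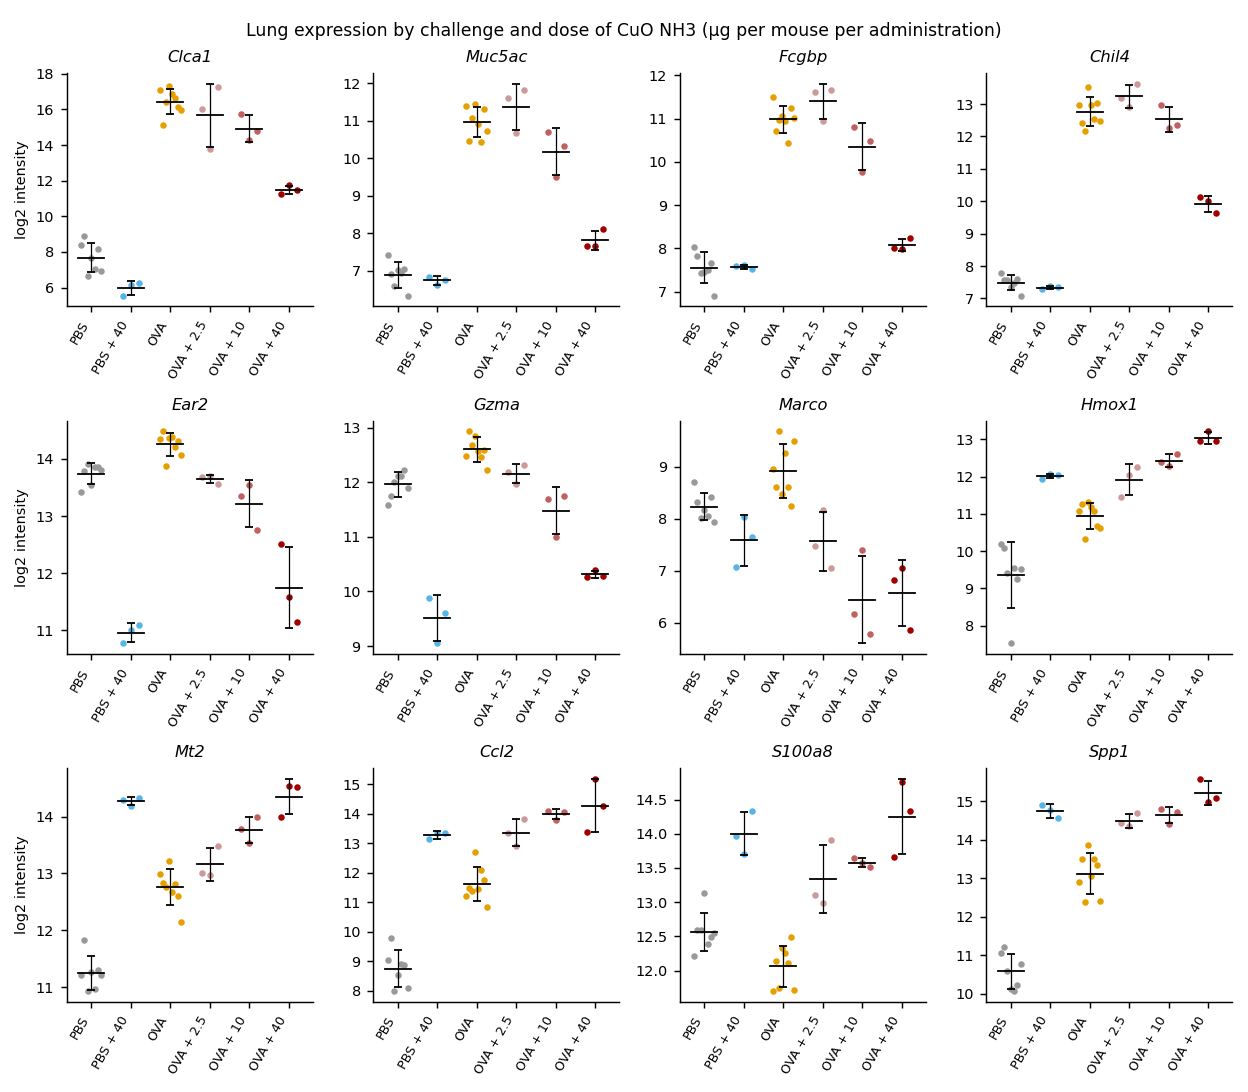
Log2 intensity (dye, slide and array position removed) of 12 genes, a panel each, in PBS controls, PBS with 40 µg CuO NH3, OVA controls and OVA with 2.5, 10 and 40 µg. Points are samples, the horizontal line the mean and the bar 1 SD. Clca1, Muc5ac, Fcgbp and Chil4 are lower in all 3 samples at 40 µg than in any other OVA-challenged sample shown, whereas Hmox1, Mt2, Ccl2 and Spp1 are above the OVA control mean at each dose.

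At 40 µg with OVA, CuO NH3 was set against the 3 other materials, which differ from it in the labelled surface, bare in core CuO, carboxylated in CuO COOH and coated with polyethylene glycol in CuO PEG. These 3 pairs are matched by mass of material and by time. Per the study's methods the coating takes up part of that mass, so the dose of copper differed too, and surface and copper dose cannot be told apart. They were fitted with terms for slide and array position, and with array terms in their place no gene was called in any pair. The 4 genes of 40 against 10 µg came from array terms and became 405 with slide terms. That count is therefore not comparable with the counts given here. Core CuO and CuO COOH lay on other slides than CuO NH3, so these 2 pairs are compared across slides. CuO NH3 differed from core CuO in 95 genes (0.415%, with 37 higher, or 0.161%, and 58 lower, or 0.253%), from CuO COOH in 103 (0.45%, with 9 higher, or 0.0393%, and 94 lower, or 0.41%) and from CuO PEG in 446 (1.95%, with 161 higher, or 0.703%, and 285 lower, or 1.24%). The count against core CuO was 3 without core CuO sample 1, 6 without core CuO sample 3, 5 without exposed sample 3 and 271 without core CuO sample 2. That against CuO COOH was 50 without its sample 3, and that against CuO PEG was 249 without exposed sample 3.

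Against CuO PEG, the stress genes Hspa1a and Hmox1 and the secreted protein gene Retnlb were higher with CuO NH3, and the lymphocyte genes Gzma and Cd2 were lower. Hspa1a was at 10.32, 10.89 and 11.28 with CuO PEG and higher with CuO NH3 by 2.38 (95% interval 1.37 to 3.39, adjusted p = 0.00156). Hmox1 was at 11.38, 11.42 and 12.13 with CuO PEG and higher with CuO NH3 by 1.39 (0.64 to 2.15, adjusted p = 0.0162). Retnlb was at 9.68, 8.37 and 9.92 with CuO PEG, a difference of 2.19 (1.38 to 3.01, adjusted p = 0.000384). In these 3 genes no CuO PEG sample reached the lowest CuO NH3 sample. Gzma was lower with CuO NH3 by 1.26 (-1.76 to -0.77, adjusted p = 0.000638) and Cd2 by 0.97 (-1.31 to -0.63, adjusted p = 0.000154). For Mt2 the difference was 0.76 (0.14 to 1.37, adjusted p = 0.147), which did not pass.

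Sftpa1 was lower with CuO NH3 than with core CuO by 0.80 (95% interval -1.06 to -0.54, adjusted p = 0.00078) and than with CuO PEG by 0.90 (-1.12 to -0.67, adjusted p = 5.93e-07). It was at 16.15, 15.93 and 16.17 with core CuO and at 16.00, 16.24 and 16.31 with CuO PEG, within or close to the range of the OVA controls, and at 15.57, 15.71 and 15.63 with CuO COOH, which differed from CuO NH3 by less than the test could call (adjusted p = 0.376). Ccl24 was higher than with core CuO by 2.24 (1.33 to 3.15, adjusted p = 0.0212), at 12.21, 13.59 and 12.72 against 10.69, 11.22 and 9.89. All 3 core CuO samples and 1 of the 3 CuO NH3 samples lay below the OVA controls of 12.33 to 13.62. The call of this difference was lost in 5 of 14 alternatives. The interferon-stimulated genes Irf7 and Ifi44 were lower with CuO NH3 than with CuO COOH and CuO PEG. Ifi44 differed by -2.63 (adjusted p = 0.00271) and -1.98 (adjusted p = 0.00199). Irf7, a regulator of interferon responses, was at 12.95, 12.45 and 12.87 with CuO COOH and at 9.59, 10.05 and 10.28 with CuO NH3, a difference of -2.78 (-3.84 to -1.72, adjusted p = 0.00271), and of -1.92 from CuO PEG (adjusted p = 0.00512), although 1 of the 3 CuO PEG samples, at 10.63, lay within the OVA controls of 10.32 to 11.38. Stfa1 was higher with CuO NH3 than with CuO COOH by 1.95 (1.01 to 2.89, adjusted p = 0.0276).

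For the goblet cell mucin the materials were not told apart. Muc5ac was at 8.98, 8.60 and 8.97 with core CuO, 8.08, 7.80 and 8.47 with CuO COOH and 8.79, 8.50 and 9.64 with CuO PEG, all below the OVA controls of 10.43 to 11.45. CuO NH3 differed from core CuO by -1.04 (95% interval -2.17 to 0.10, adjusted p = 0.436), from CuO COOH by -0.30 (adjusted p = 0.942) and from CuO PEG by -1.16 (adjusted p = 0.173), intervals that leave room for differences of over 1 unit. Hmox1 differed from core CuO by -0.20 (-1.07 to 0.66, adjusted p = 0.901) and from CuO COOH by 0.62 (-0.26 to 1.5, adjusted p = 0.801). Mt2 differed from core CuO by -0.30 (-1.0 to 0.41, adjusted p = 0.79).

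**Figure D5:**
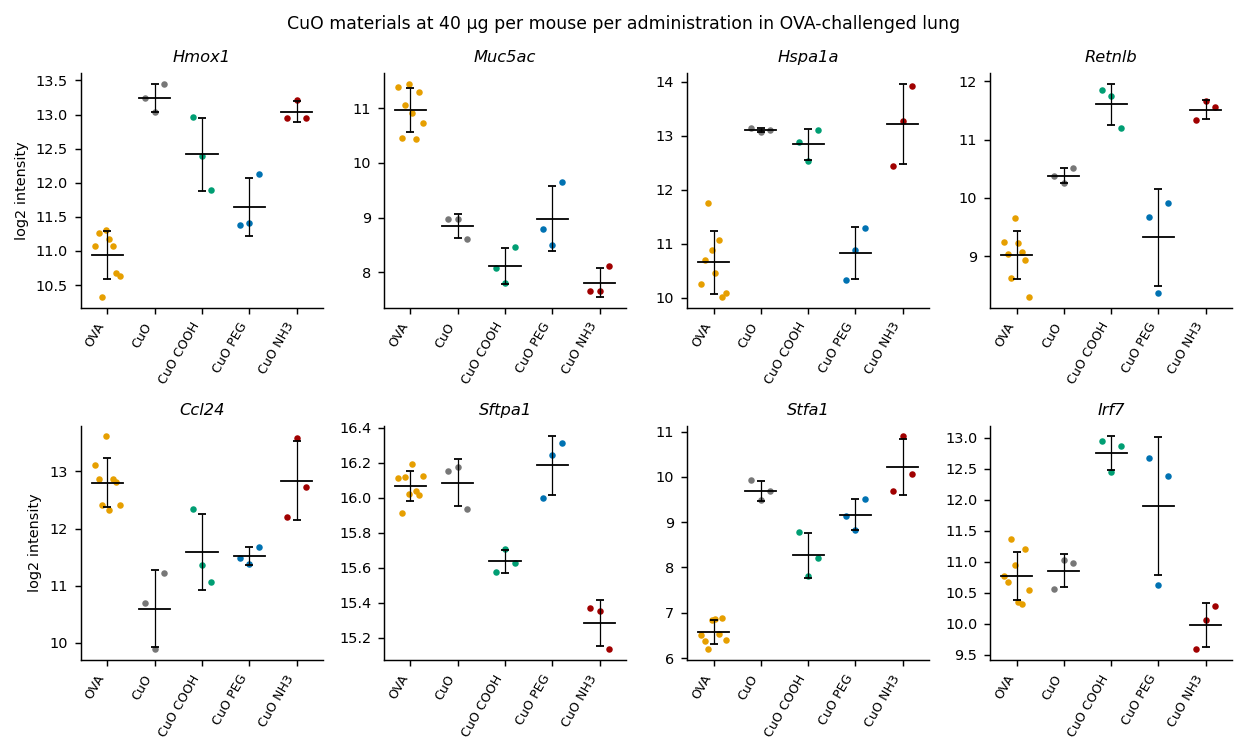
Log2 intensity (dye, slide and array position removed) of 8 genes in OVA controls and in OVA-challenged mice given 40 µg of each of 4 copper oxide materials. Points are samples, the line the mean and the bar 1 SD. Sftpa1 is lowest with CuO NH3, Hspa1a and Retnlb are near the OVA controls with CuO PEG alone of the 4 materials, and Irf7 is above all OVA controls with CuO COOH and in 2 of 3 CuO PEG samples.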

How the data were processed

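Lung tissue RNA of 89 samples in 26 groups was hybridised to 2-colour Agilent arrays (46 arrays on 6 slides, 1 sample in each dye, 3 arrays with 1 sample). The authors deposited scanner intensity files made with Agilent Feature Extraction 12.0.2.2, per the file headers, and a table of log2 values that the authors had normalised (column medians 6.63 to 6.65), used here as an alternative. From the deposited median foreground intensity of a sample's own dye, control spots (3671 of 62976) and spots flagged as outliers were left out, values were log2-transformed and quantile-normalised without background subtraction, and spots were averaged to 56605 probes and, through RefSeq accessions on the array, to 22911 genes (32994 probes; 23611 probes matched no gene and stayed unnamed). limma 3.58.1 in R 4.3.3 fitted group, dye and array as fixed terms to all samples (17 residual degrees of freedom), or dye, slide and array position for comparisons between materials (50 residual degrees of freedom), with Benjamini-Hochberg adjustment over all genes. Levels shown have dye, slide and position removed. The number of arrays limits the precision. Genes are named by a rule: the 10 largest rises and 10 largest falls of called genes without overlap between groups, up to 4 called members of each gene list, the 3 largest changes each way of each other comparison, and 19 genes of copper binding, acute phase, chemokines, cytokines and mucus; 2 genes that the rule picks are not reported here. The gene lists (19 of cell types and 17 of pathways) and comparisons were chosen with earlier results of these data known, so they are no independent support. Alternatives were normexp (offset 50) and loess, dim probes left out, the deposited table, the brightest probe per gene, other array, slide and replicate terms, controls of the same slides, 2 groups only, a stricter adjusted p and leaving out each sample. Scripts were tested on simulated data. Python 3.11.15 and matplotlib 3.10.9 drew the figures.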

Additional observations from a re-analysis of the deposited data

Results flagged for a closer look

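Single control samples stood apart from the rest of their group in 15 of 254 pairs of a named gene and a control group (5.91%), where chance flags about 1 in 20. PBS control 4 was the one furthest out in 6 of them. It was the highest for Dmbt1 (6.79), Mt2 (11.83, next highest 11.30) and Ccl3 (7.97) and the lowest for Etv5 (13.24), Hopx (14.47) and Aldh1a1 (15.00). PBS control 1 was lowest for Hmox1 at 7.52, with the next lowest at 9.24, and highest for S100a8 at 13.13. PBS control 6 was highest for Cd209a (7.41) and lowest for Muc5b (9.56), and PBS control 5 was lowest for Ptprn (5.46). Among OVA controls, control 7 was highest for Etv5 (13.64) and Ccdc153 (11.77), control 5 for Gdf15 (7.43) and control 8 for Itgae (8.55). Only the OVA and PBS controls were examined in this way, not the 3 exposed samples.

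The effect of CuO NH3 at 40 µg differed between OVA- and PBS-challenged mice in 21 of the named genes, by limma's test of the difference itself. The difference is the log2 fold change with OVA minus that with PBS. It was negative for the chemokines Cxcl13 (-4.08), Ccl8 (-3.17) and Cxcl5 (-3.16), for the epithelial transporters Slc26a4 (-3.62) and Fxyd4 (-3.63), for the IL-13 response and mucus genes Fcgbp (-2.72), Chil4 (-2.59) and Retnlb (-2.36), and for the macrophage genes Spp1 (-2.29) and Cd14 (-1.69). It was also negative for the mitotic genes Tpx2 (-1.86), Cdk1 (-1.58), Ccnb1 (-1.48) and Bub1 (-1.27), for Mt2 (-1.47) and Mt1 (-0.97), and for Adra2a (-1.64), Il33 (-1.62) and Il6 (-1.47). It was positive for the xenobiotic enzymes Cyp2a5 (2.53) and Cyp2a4 (2.19), but the calls were lost in 15 of 29 alternatives for Cyp2a5 (adjusted p up to 0.34) and in 12 of 29 for Cyp2a4 (adjusted p up to 0.312). Cyp2a4 and Cyp2a5 are near-identical copies, and whether their probes tell them apart was not tested.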

How the results depend on the processing

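The 903 genes of the main comparison became 1409 with array as a random block, 462 at an adjusted p under 0.01, and 427 to 1071 when 1 sample was left out, the lowest without exposed sample 1. With loess 43.4% of the calls were higher in place of 52.3%. The 363 genes of the difference between challenges became 734 with the random block, 788 with slide terms, and 147 to 428 without 1 sample, with 25.5% and 22.7% higher under the first pair in place of 12.7%. The 4 genes against 10 µg became 14 with the probe of highest mean, 364 with the random block, 405 with slide terms, and 3 to 33 without 1 sample. The 95 genes against core CuO became 1049 with the random block, 0 with array terms, and 3 to 271 without 1 sample. The 103 against CuO COOH became 1116, 0, and 50 to 127, and the 446 against CuO PEG became 0 with array terms and 249 to 515 without 1 sample. The 1197 genes of OVA against PBS controls stayed within 1.5 times. The cause of these shifts was not tested.

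Whether the replicate numbers pair the samples cannot be settled here, since slide and position effects were removed before the check. Deviations of samples of the same number correlated at 0.23, -0.09 and -0.10, the first being the highest value of any pair. A replicate block in place of the array terms gave 2793 genes in the main comparison (626 shared with the 903), 738 for the difference between challenges, 433 against 10 µg, 1100 against core CuO, 1358 against CuO COOH and 479 against CuO PEG. Under this block the fold change of Eng (0.04, adjusted p = 0.882) changed sign. Of the 91 named genes called in the main comparison, 40 kept their call in all 22 alternatives, and 37, 38 and 24 lost it without exposed samples 1, 2 and 3. Signal over background limited Slc4a1, Il5 and Il13, which were not well above background in any exposed sample.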

Other observations

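Of 15 circadian clock genes 2 fell with CuO NH3 at 40 µg in OVA-challenged mice and 13 were not called, with a median of -0.55. In 7 of the 15 all exposed samples lay below all OVA controls, against 9.82% of all genes. The count of called clock genes ran from 1 to 10 over the alternatives. Dbp, a clock-controlled transcription factor, was at 11.95, 12.05 and 11.79 against 13.01 to 14.32 in OVA controls and 14.24 to 14.87 in PBS controls, and fell by 1.76 ± 0.34 (limma adjusted p = 0.0029). In PBS-challenged mice given 40 µg it was at 11.47, 11.80 and 11.34. Nr1d1, a repressor within the clock, was at 8.63, 8.64 and 8.47 against 9.48 to 10.43 and fell by 1.29 ± 0.37 (adjusted p = 0.0364), a call lost in 6 of 22 alternatives. Without OVA control 1 the count of clock genes was 5 and without OVA control 5 it was 6. The times of day at which the groups were killed are not given in the sources used here.

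Of 11 interferon-stimulated genes 2 fell, with a median of -0.88, and the mean level of the list was 8.80 to 9.39 in exposed samples against 9.5 to 10.15 in OVA controls. Cxcl9, a T cell chemokine, was at 6.90, 7.23 and 7.51 against 8.09 to 9.26 and fell by 1.68 ± 0.49 (adjusted p = 0.043). Gbp2, a guanylate-binding protein, was at 9.82, 9.97 and 9.95 against 10.45 to 10.87 and fell by 1.00 ± 0.23 (adjusted p = 0.0118). Without exposed sample 1 neither was called.

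The adrenergic receptor gene Adra2a was at 6.94, 6.80 and 6.68 in exposed samples, 8.30 to 9.06 in OVA controls and 6.30 to 6.49 in PBS controls. It fell by 1.81 ± 0.31 (adjusted p = 0.00129). Bpifb5 was at 7.85, 7.78 and 7.18 against 8.84 to 9.48, and fell by 1.66 ± 0.16 (adjusted p = 4.83e-06), although PBS controls, at 8.55 to 8.71, lay below the OVA controls. Msln, a marker of mesothelium, rose by 1.26 ± 0.27 (adjusted p = 0.00626), a call lost without exposed sample 1, exposed sample 3 or OVA control 8. It was the only called member of 5 mesothelium and fat genes, whose fold changes ran from -2.27 to 1.26 (median -0.01). Upk3b, another mesothelial marker of that list, named after its value was seen, had 0.09. Acaa1b, a peroxisomal thiolase, fell by 0.66 ± 0.18 (adjusted p = 0.0308), with exposed sample 2 at 7.64 and the others at 9.71 and 9.52 against 10.08 to 10.39.

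Cardiac muscle genes varied within the control groups, with a mean level of 8.95 to 9.76 in exposed samples, 9.27 to 10.85 in OVA controls and 9.52 to 12.09 in PBS controls. None of the 6 was called.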
